A study of Drosophila melanogaster with 48 samples.

Results

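The genes described are those for the proteins of the cytosolic ribosome of Drosophila melanogaster. They were taken as every protein-coding gene on 2L, 2R, 3L, 3R, 4 or X whose RefSeq symbol in the dm6 build begins with RpL or RpS followed by a digit or by P. By this rule 92 of 13922 protein-coding genes were members, 54 for the large subunit (RpL) and 38 for the small subunit (RpS). They were short genes, from 304 to 4677 bp with a median of 1315 bp, against a median of 2163 bp over all protein-coding genes.

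The ribosome joins a small subunit, which reads the mRNA, to a large subunit, which forms the peptide bond, and each cell needs the proteins of both in balance. In flies the loss of a single copy of many of these genes slows growth and gives the short bristles of the Minute phenotype. Larval neuroblasts, the stem cells of the fly brain, regrow after each division, and Brat, a translational repressor handed to one of the daughters, limits ribosome production in that daughter. Zelda (Zld) is a pioneer factor, a DNA-binding protein that can open closed chromatin, best known for starting transcription of the embryo's own genome.

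Binding of Zld was measured by CUT&RUN, in which a nuclease tethered to an antibody releases the DNA beside the bound protein. L3 larvae raised at 18 °C were shifted for 24 h to 33 °C, and 50 brains went into each reaction, while another label gives a different rearing temperature. The labels name type II neuroblasts as the cell type. The 4 anti-Zld samples carry 1 genotype label, which names brat11/DF, Tub-Gal80ts, the UAS-HA-Zld transgene and the driver WorGal4, so the mutant brat alleles are common to both conditions by that label. Only the titles separate 2 samples named brat from 2 named UAS-HA-Zld, an HA-tagged Zld under the control of Gal4, and the conditions below rest on those titles. Wor-Gal4 drives the transgene in neuroblasts, and Tub-Gal80ts, a Gal4 inhibitor made in all cells, stops working at the higher temperature. Whole brains were the input, so signal from cells other than neuroblasts is not separated, and peak lists hold no marker transcripts with which the cell type label could be checked.

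For each condition 1 peak list was analysed, with no list per replicate. The brat list held 13826 summits in 7644 peaks and the UAS-HA-Zld list held 16252 summits in 9065 peaks. With 1 list per condition no test between conditions was possible, and every difference below is a description of these lists. The peak numbers run to 9490 and 11256, so that 1846 and 2191 numbered peaks were not analysed here. A gene without a summit is a gene without one among the peaks analysed. Each summit carries the authors' fold enrichment, the ratio of the pileup of fragments to the local background with 1 added to each. The median pileup at a summit was 147 fragments for brat and 208 for UAS-HA-Zld.

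Most ribosomal protein genes had a Zld summit inside the gene or within 500 bp of an end of it, and more of them had one in the brat list. There 79 of 92 members had a summit, 85.9% (Wilson 95% interval 77.3 to 91.6%), where 34.0% of all protein-coding genes did. In the UAS-HA-Zld list it was 61 of 92, 66.3% (56.2 to 75.1%), where 32.3% of all protein-coding genes did. A summit in both lists was found at 60 members, or 65.2%, against 27.1% of all protein-coding genes. The intervals cover counting error only.

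Long genes offer more room for a summit, so genes of like length were also counted. Among the 10246 protein-coding genes no longer than the longest member, 23.6% had a summit in the brat list, 22.7% in the UAS-HA-Zld list and 17.4% in both. 3 other housekeeping groups, chosen by symbol, had lower shares in the same lists. Of 73 genes for mitochondrial ribosomal proteins, which make the separate ribosome of that organelle, 30 had a brat summit and 26 a UAS-HA-Zld summit, 41.1% and 35.6%. Of 44 genes for translation initiation factors the counts were 25 and 23, 56.8% and 52.3%. Of 48 genes for subunits of the proteasome, the protein-degrading complex, they were 13 and 11, 27.1% and 22.9%. None of these differences between gene groups was tested.

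**Figure D1:**
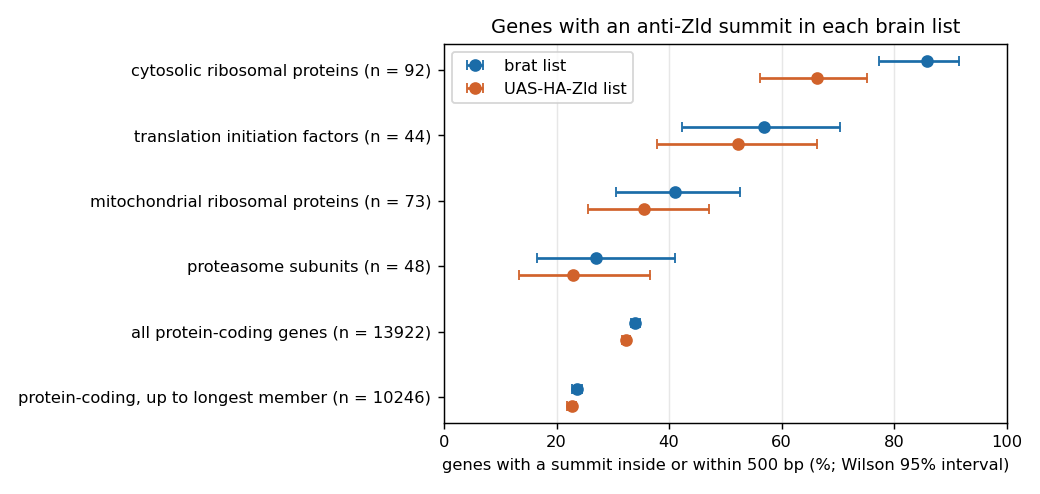
Share of genes with an anti-Zld summit inside the gene or within 500 bp, in percent, for each gene group (rows), with Wilson 95% intervals as bars and the brat list (blue) and UAS-HA-Zld list (orange) as points. The ribosomal protein genes lie at 85.9% and 66.3%, and each comparison group lies lower in the same list.

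The 2 lists divided the members unevenly. A summit in the brat list alone was found at 19 members, or 20.7%, against 6.92% of all protein-coding genes and 6.22% of those no longer than the longest member. A summit in the UAS-HA-Zld list alone was found at 1 member, or 1.09%, against 5.21% and 5.31%. Of the members with a brat summit, 24.1% had none in the UAS-HA-Zld list, near the 20.3% of all genes with a brat summit and the 26.3% of the short ones. In the other direction the members stood below the background, since 1.64% of members with a UAS-HA-Zld summit lacked one in the brat list, against 16.1% of all such genes and 23.4% of the short ones.

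Both subunits had similar shares. Of 54 large-subunit genes, 46 had a brat summit (85.2%) and 35 a UAS-HA-Zld summit, and of 38 small-subunit genes the counts were 33 (86.8%) and 26. The median fold at the strongest summit, taken as the summit with the highest −log10 q in the gene's window, was 5.79 for the large and 5.58 for the small subunit in the brat list. It was 4.17 and 3.77 in the UAS-HA-Zld list.

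Across all members with a summit, the median fold was 5.62 in the brat list, with quartiles of 3.16 and 8.29, against 4.75 over all protein-coding genes with a summit. In the UAS-HA-Zld list it was 4.01, with quartiles of 2.58 and 5.60, against 4.05. The pileups behind these folds ran from 63 to 1399 fragments for brat and from 92 to 1497 for UAS-HA-Zld. Over the genes no longer than the longest member the median fold was 3.94 and 3.38. The members' median thus lay above that of short genes in both lists and, over genes of all lengths, above it for brat and close to it for UAS-HA-Zld.

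**Figure D2:**
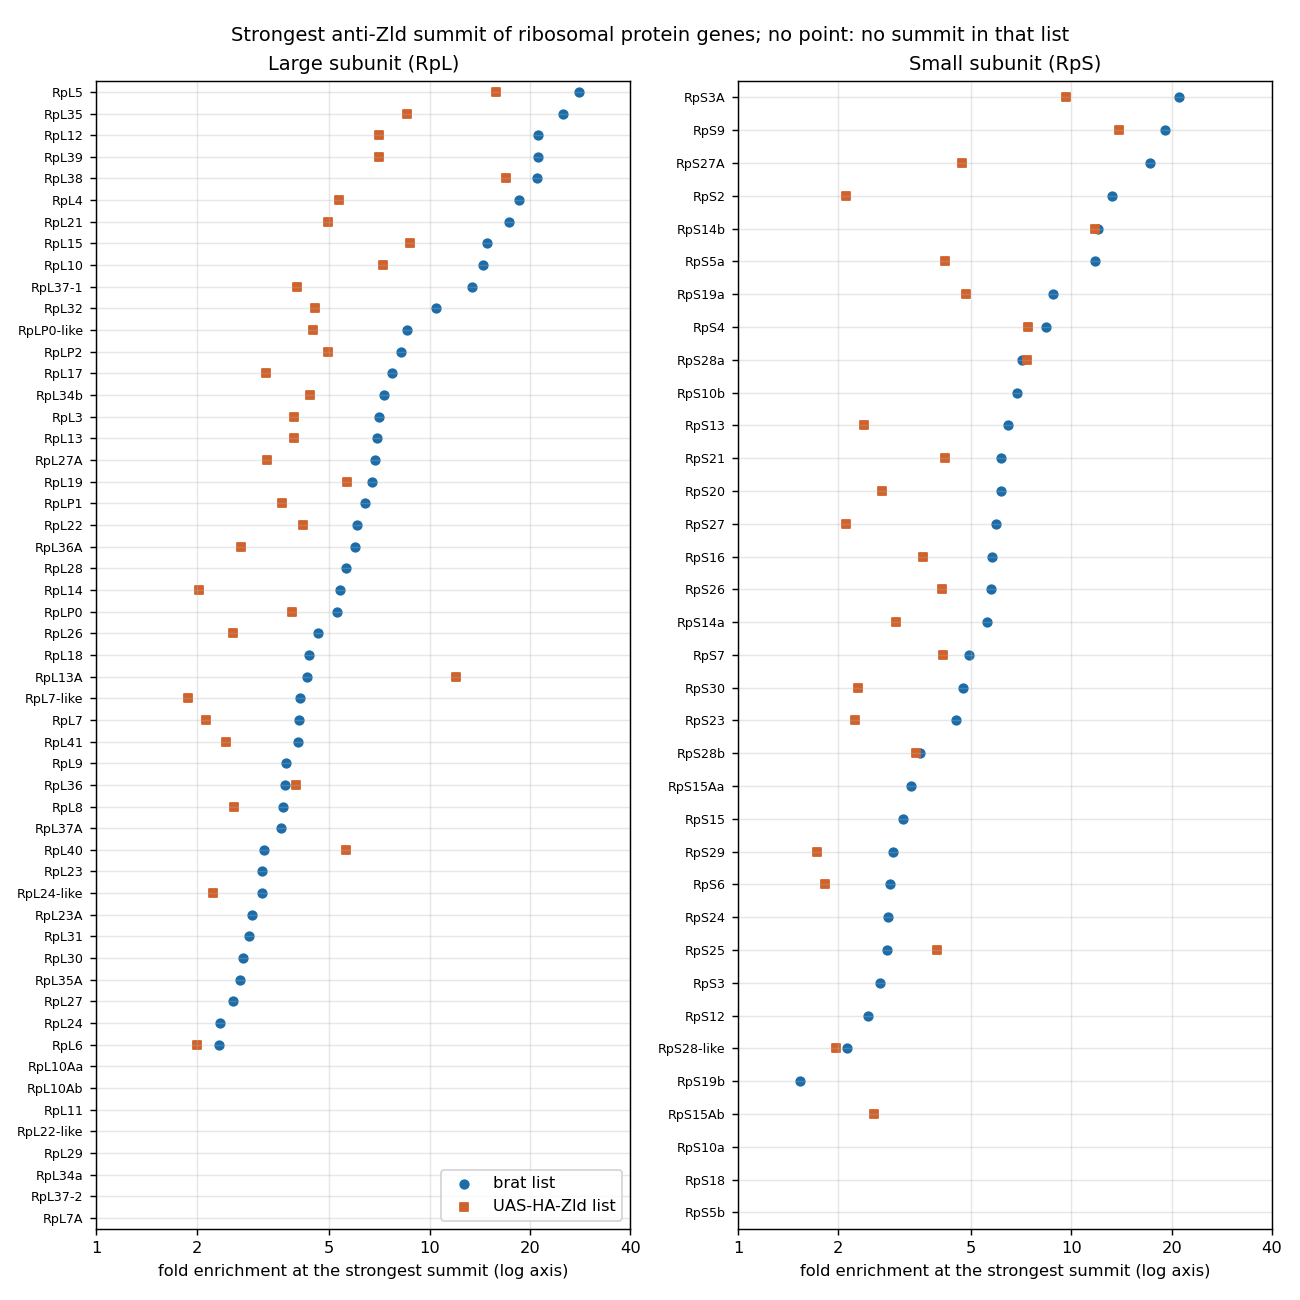
Fold enrichment at the strongest summit of 88 of the 92 ribosomal protein genes (log axis), large subunit on the left and small subunit on the right, in order of the brat value, with blue circles for the brat list and orange squares for the UAS-HA-Zld list. The brat values run from 1.54 to 28.0 and the UAS-HA-Zld values from 1.72 to 16.9, and the genes at the foot of the panels have no point in either list.

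Among large-subunit genes, RpL5 (2L:22532279-22536884) had the highest fold of any member in the brat list. Its product binds the 5S rRNA and carries it into the large subunit. The summit lay 1 bp outside an end of the gene at 28.0-fold with a pileup of 660 fragments in the brat list, and on the end base itself at 15.8-fold with 514 fragments in the UAS-HA-Zld list. The brat background there, 22.6 fragments, was as low as the lowest of that list. By −log10 q RpL5 was number 3 of the members in the brat list. RpL11, whose product shares the 5S rRNA with that of RpL5, had no summit in either list. The 2 genes thus stood at opposite ends of the range, although 1 peak number beside RpL11 was absent from the brat list.

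RpL35 (X:5672401-5673547), for a protein near the exit of the peptide tunnel, reached 25.1-fold with 829 fragments in the brat list, 193 bp inside an end. In the UAS-HA-Zld list it reached 8.55-fold with 405 fragments, 202 bp inside. The same place held the strongest summit in both lists, and no other protein-coding gene lay in its reach. RpL38 (2R:4515388-4516458), which in mice is known for a role in translating Hox mRNAs, stood at 21.0-fold with 494 fragments and at 16.9-fold with 504. Its UAS-HA-Zld value was the highest fold of any member in that list. The background there was 28.8 fragments, the lowest at any summit of that list. By −log10 q RpL38 was number 4 of the members in the UAS-HA-Zld list and number 9 in the brat list.

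RpL12 and RpL39 are neighbours on 2R and shared 1 strongest summit, 126 bp inside RpL39 and 445 bp outside RpL12. It stood at 21.1-fold with 646 fragments for brat and at 7.02-fold with 309 for UAS-HA-Zld. RpL12 belongs to the base of the stalk that recruits elongation factors, and RpL39 lines the peptide tunnel. The gene next to them in the same stretch, eEF5, has its own stronger summit, given below with the elongation factors.

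RpL4 (3R:27922821-27924888) and RpL21 (2L:22247111-22247875) had their strongest summits at other places in the 2 lists. For RpL4 it was 18.5-fold with 688 fragments at 120 bp inside in the brat list. In the UAS-HA-Zld list it was 5.36-fold with 683 fragments, 216 bp beyond the other end and within reach of mino. The raw pileups were close in number, but they come from lists of unequal depth and from different places. The fold divides by the local background, which was 36.3 fragments at the first place and 127 at the second. For RpL21 it was 17.4-fold with 476 fragments at 179 bp inside for brat and 4.97-fold with 296 fragments at 363 bp inside for UAS-HA-Zld.

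RpL13A (3R:5624474-5625947) was ranked far apart in the 2 lists. Its summit, 124 bp inside for brat and 131 bp inside for UAS-HA-Zld, had 4.29-fold with 233 fragments in the first and 12.0-fold with 965 fragments in the second. By −log10 q it was number 3 of the members in the UAS-HA-Zld list and number 45 in the brat list. Dph4 and Spec2 also lay within reach of that summit.

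Of the small-subunit genes, RpS9 (3L:9509793-9511531) was first in both lists by −log10 q. Its product binds the rRNA of the small subunit, which decodes the mRNA. The summit stood at 19.1-fold with 1399 fragments for brat and at 13.9-fold with 1497 for UAS-HA-Zld. It lay 386 and 390 bp outside the gene, within reach of CG3408, so the assignment to RpS9 is by distance only.

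RpS3A (4:65225-67207) is the only member on chromosome 4 and a known Minute gene. Its summit reached 21.0-fold with 614 fragments at 121 bp inside for brat and 9.67-fold with 409 fragments at 118 bp inside for UAS-HA-Zld. High values were common on that chromosome. Of its 80 protein-coding genes, 77.5% had a brat summit and 53.75% a UAS-HA-Zld summit, with median folds of 11.6 and 5.79. RpS4 (3L:13041756-13044234) stood at 8.40-fold with 625 fragments and at 7.41-fold with 823, at a summit 327 bp and 323 bp outside the gene that is also in reach of Syx13.

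The 19 members with a summit in the brat list alone were mostly weak ones there. Their folds ran from 1.54 to 6.89 with a median of 2.93, against a median of 6.43 for the members in both lists, and their pileups ran from 63 to 224 with a median of 134, against 280.5. RpS10b (X:19598031-19599806) was highest at 6.89-fold with 179 fragments, 142 bp outside an end. RpL28 (3L:3220911-3222960) followed at 5.62-fold with 224 fragments, 114 bp inside and within reach of eIF1, an initiation factor gene. These 2 were the members of the 19 with a brat fold at or above the members' median.

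RpL18 had 4.33-fold with 150 fragments, RpL9 had 3.72-fold with 134 and RpL37A had 3.58-fold with 112. RpL23 had 3.14-fold with 176 fragments. RpL31, RpL30 and RpS3 lay between 2.67-fold and 2.87-fold. RpS3, at 2.67-fold, encodes a protein that also acts in DNA repair. Lower or similar values were found at RpL23A, RpL24, RpL27, RpL35A, RpS12, RpS15, RpS15Aa, RpS19b and RpS24, from 1.54-fold to 3.31-fold.

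An absent peak number beside a gene bears on these counts. Of the 19, 11 had a number absent from the UAS-HA-Zld list between the numbers on either side of the gene, so that a peak not analysed here may lie at them, and 8 had none. Over all protein-coding genes with a summit in the brat list alone, 62.7% had such an absent number. Of the 2 highest, RpS10b had 2 absent numbers and RpL28 had 1. RpL18, RpL31, RpL37A and RpS3 had none, and so had RpL35A, RpS15, RpS15Aa and RpS19b. Near misses of the 500 bp window also occurred, with the nearest UAS-HA-Zld summit 577 bp from RpS19b, 672 bp from RpL30 and 778 bp from RpL28.

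The single member with a summit in the UAS-HA-Zld list alone was RpS15Ab on 2R, at 2.56-fold, and 2 absent brat numbers stood beside it. No summit in either list was found at 12 members, among them RpL10Aa, RpL10Ab, RpL11, RpL22-like, RpL29, RpL34a, RpL37-2, RpL7A, RpS10a, RpS18 and RpS5b. RpL7A had no absent number beside it in either list, and its nearest summit lay 778 bp away in each list. Of the 13 members without a brat summit 11 had an absent brat number beside them, against 42.9% of all genes without one. Of the 31 without a UAS-HA-Zld summit it was 17, against 48.8% of all genes without one. The strongest summits of RpS21 lay near the edge of the window, 479 and 490 bp outside, and each list also had a weaker summit inside that gene.

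Members that lacked a brat summit were more frequent among gene copies. In 13 families the symbols mark 2 or 3 related genes, 27 members in all. Of these 19 had a brat summit (70.4%, 51.5 to 84.1%), 16 a UAS-HA-Zld summit (59.3%, 40.7 to 75.5%) and 7 none in either list. Of the 65 members with a single gene, 60 had a brat summit (92.3%, 83.2 to 96.7%), 45 a UAS-HA-Zld summit (69.2%, 57.2 to 79.1%) and 5 none. The intervals of copies and single genes overlapped in both lists, for brat only at their edges. The treatment of reads that map to several copies is not known here, and values of near-identical copies are uncertain for that reason.

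In 4 families 1 copy had summits in both lists and the other copy had none in either. RpL22 stood at 6.04-fold for brat and 4.17-fold for UAS-HA-Zld, and RpL22-like, a copy used in the testis, had none. RpS5a stood at 11.8-fold and 4.19-fold, and RpS5b, a copy used in the ovary, had none. RpL37-1 stood at 13.4-fold and 4.01-fold beside RpL37-2 with none, and RpL34b at 7.29-fold and 4.38-fold beside RpL34a with none. The RpL34b summits lay 1228 bp apart, 123 bp inside for brat and 362 bp outside for UAS-HA-Zld. The latter was in reach of CG34117 and Or85f. RpS10b, given above for the brat list alone, stood beside RpS10a with none in either list, and RpL10Aa and RpL10Ab both lacked a summit. Beside each of these copies without a summit a brat peak number was absent. A UAS-HA-Zld number was absent beside all of them but RpL22-like and RpS10a. A peak not analysed here may thus lie at these copies.

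In RpS19 the copies also differed. RpS19a had 8.80-fold with 277 fragments for brat and 4.83-fold with 240 for UAS-HA-Zld, at summits 216 bp apart. RpS19b, a copy used in the germline, had 1.54-fold with 63 fragments in the brat list and no summit in the other, and its brat summit was the lowest of all members. RpS15Aa had 3.31-fold in the brat list alone and RpS15Ab the summit in the UAS-HA-Zld list alone.

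Other families showed summits at each copy. RpS14a and RpS14b are near-identical neighbours on X and the strongest summit of RpS14a lay within reach of RpS14b as well. RpS14a had 5.58-fold with 195 fragments and 2.98-fold with 153, at summits 159 bp apart. RpS14b had 12.0-fold with 739 fragments and 11.7-fold with 1052 at a summit 264 bp outside its end in the first list and 258 bp in the second, in reach of Ubr3. RpL7 had 4.05-fold and 2.13-fold, and RpL7-like had 4.07-fold and 1.88-fold. The summits of the 2 lists lay 225 bp apart for RpL7 and 289 bp apart for RpL7-like. RpS28a had 7.11-fold and 7.35-fold at a summit near Mgat2, RpS28b had 3.51-fold and 3.42-fold, and RpS28-like had 2.12-fold and 1.96-fold near numb.

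In the RpLP0 and RpL24 families the copy named "like" belongs to a different step of the ribosome's life. RpLP0, a base of the stalk, had 5.28-fold for brat and 3.86-fold for UAS-HA-Zld, while RpLP0-like, related to the yeast assembly factor Mrt4, had 8.55-fold and 4.46-fold at a summit in reach of 14-3-3zeta. The summits of the 2 lists lay 181 bp apart for RpLP0 and 189 bp apart for RpLP0-like. RpL24 had 2.35-fold in the brat list alone, and RpL24-like, related to the yeast assembly factor Rlp24, had 3.14-fold and 2.23-fold. The RpL24-like summits lay 562 bp apart, both in reach of CG5276, with the UAS-HA-Zld one 436 bp outside the gene.

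In the brat list the strongest summit of a member lay most often at 1 distance from a gene end. In the brat list it was 100 to 200 bp inside the nearer end in 45 of 79 members (57.0%), against 27.5% of the other 4659 protein-coding genes with a summit and 31.8% of those no longer than the longest member. In the UAS-HA-Zld list it was 19 of 61 (31.1%), against 22.4% of the other 4439 genes and 26.4% of the short ones, and as many members had it 200 to 500 bp outside. The first 100 bp inside an end held the strongest summit of 2 members in each list. The reference gives no strand, so the start and the end of a gene were counted together, and the distance classes were chosen after their values were seen.

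Among the groups compared, 100 to 200 bp inside held the strongest brat summit of 10 of 25 initiation factor genes, 7 of 30 mitochondrial ribosomal protein genes and 1 of 13 proteasome genes. Examples among the members were RpS5a at 126 bp inside, RpL37-1 at 139 bp, RpL35 at 193 bp and RpS3A at 121 bp. The median position over all members was 137 bp inside for brat and 129 bp inside for UAS-HA-Zld, beside 129 and 144 bp for all genes.

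**Figure D3:**
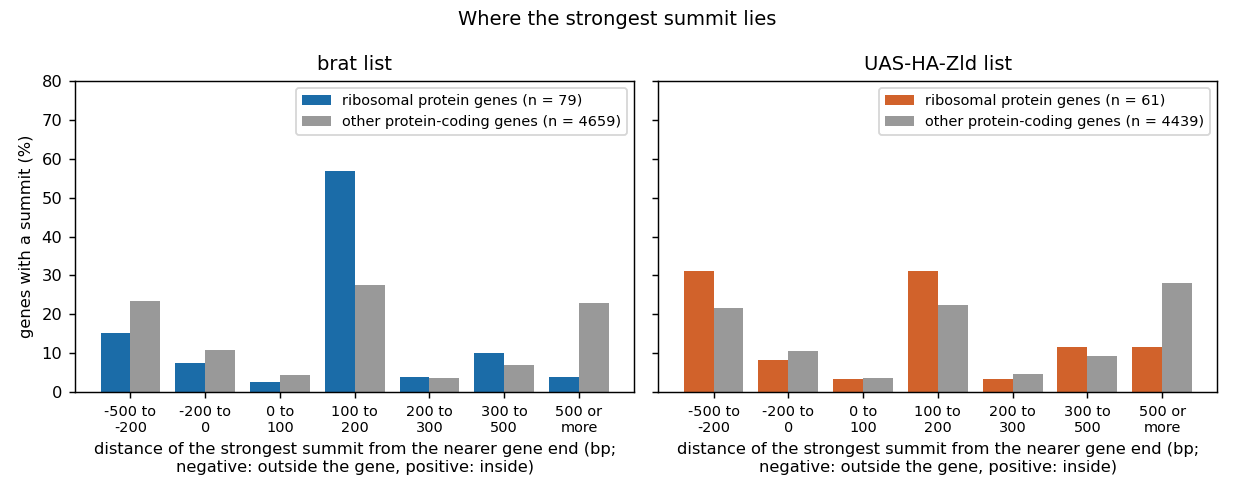
Share of genes with a summit, in percent, by the distance in bp of the strongest summit from the nearer gene end (negative outside, positive inside), for ribosomal protein genes in colour and other protein-coding genes in grey, brat list on the left and UAS-HA-Zld list on the right. The class 100 to 200 bp inside holds 57.0% of members for brat and 31.1% for UAS-HA-Zld.

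Members with a summit at this place were more numerous in the brat list. Any summit 100 to 200 bp inside an end was found at 59 members for brat and 35 for UAS-HA-Zld, 64.1% and 38.0%, against 15.1% and 11.7% of all protein-coding genes. It was present in the brat list alone at 26 members and in the UAS-HA-Zld list alone at 2. Of the members with a brat summit at that place, 44.1% had none there in the other list, near the 41.0% of all genes. Elsewhere in the window the counts were 70 and 54 members, 76.1% and 58.7%, against 30.1% and 29.1% of all genes, and 27.1% of members with a brat summit there had none in the other list, against 21.9% of all genes.

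Where both lists had a summit, the strongest ones often coincided. Over the 60 members the median shift was 17 bp, with 28 members within 10 bp and 36 within 50 bp (60.0%, against 60.7% of all genes in both lists), and none on the same base. The strongest summit lay inside the member's own gene for 61 of 79 members for brat and 37 of 61 for UAS-HA-Zld. It lay 200 to 500 bp outside for 15.2% and 31.1% of these members, against 23.5% and 21.6% of other protein-coding genes with a summit. Up to 200 bp outside it was 7.59% and 8.20%, against 10.9% and 10.6%. The strongest summit was also within reach of another protein-coding gene for 42 and 32 of the members. No share over all genes is given here for that count.

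To set the 2 lists side by side on a common footing, the folds were ranked among the 3775 protein-coding genes in both lists, each list on its own. The 60 members had a median percentile of 57.8 for brat and of 44.3 for UAS-HA-Zld. The brat percentile was the higher one for 46 of them (over all 3775 genes, for 53.0%). Of the members 39 stood above the middle gene for brat and 24 for UAS-HA-Zld. Above percentile 80 stood 16 and 8 members, and at or below percentile 20 stood 6 and 16. With only genes whose strongest summits lay within 50 bp of each other, 2293 genes with 36 members, the medians were 58.7 and 43.5.

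A lower median percentile in the UAS-HA-Zld list was also found outside the cytosolic ribosome. It was 62.7 and 38.8 for 21 mitochondrial ribosomal protein genes and 67.7 and 52.2 for 21 initiation factor genes, while 9 proteasome genes had 39.99 and 40.99. The lower percentile was thus not particular to the members.

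**Figure D4:**
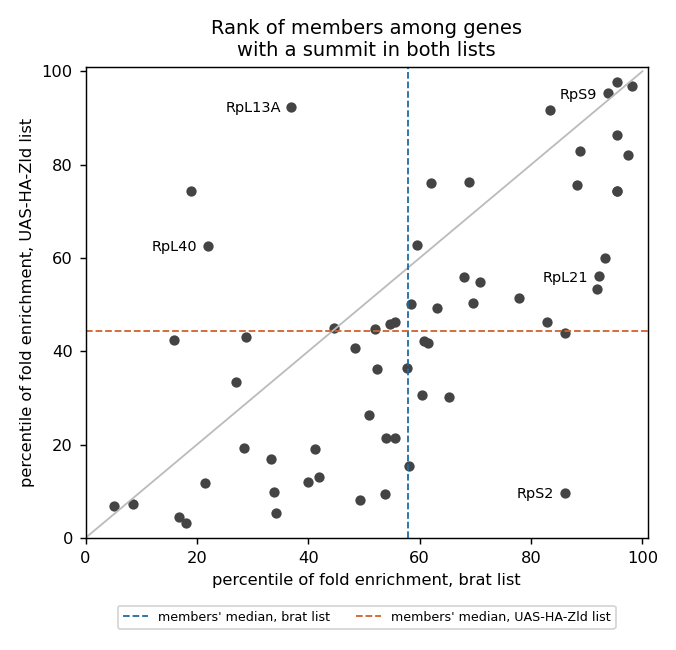
Percentile of the fold enrichment in the brat list (x axis) and in the UAS-HA-Zld list (y axis) for the 60 ribosomal protein genes with a summit in both, ranked among the 3775 protein-coding genes in both lists, with the members' medians dashed and equal percentiles as a grey line. 46 of the 60 points lie under the grey line, with RpL13A and RpL40 well above it and RpS2 far below.

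Single members stood far from equal percentiles in both directions. Those named in this paragraph were chosen after their values were seen. RpS2, for a protein of the mRNA entry channel, stood at percentile 86.0 with 13.3-fold for brat and at percentile 9.66 with 2.11-fold for UAS-HA-Zld, where its strongest summit was at another place. RpS27 stood at 53.7 and 9.52 with summits 173 and 193 bp inside the same gene. In the opposite direction RpL13A stood at 37.0 and 92.4 and RpL40, whose product is made as a fusion with ubiquitin, at 21.9 and 62.5. RpS27A, the other ubiquitin fusion, stood at 91.8 and 53.3. The strongest summits of the 2 lists lay 1071 bp apart for RpL40 and 408 bp apart for RpS27A.

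The members' share stood above the background at each threshold on strength, and more members passed each in the brat list. With a −log10 q of at least 10 at the strongest summit, 78 members remained for brat and 57 for UAS-HA-Zld, against 31.2% and 29.5% of all protein-coding genes. At 50 it was 49 and 40 members, 53.3% and 43.5%, against 19.99% and 19.95%. At 100 it was 35 and 21 members, 38.0% and 22.8%, against 14.6% and 14.3%. At 200 it was 21 and 12 members, 22.8% and 13.04%, against 9.43% and 9.12%, so that in the UAS-HA-Zld list the members came nearest to the background there.

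**Figure D5:**
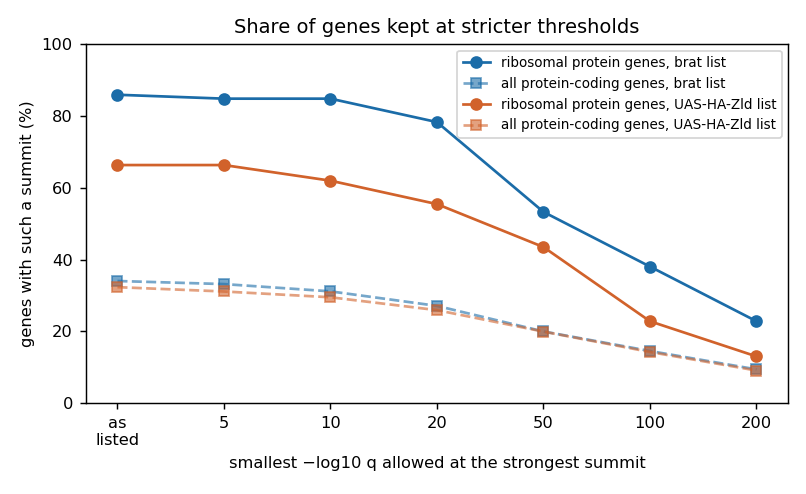
Share of genes, in percent, with a summit of at least the −log10 q on the x axis, for ribosomal protein genes (solid lines, circles) and all protein-coding genes (dashed lines, squares) in each list. At −log10 q of 200 the members stand at 22.8% for brat and 13.04% for UAS-HA-Zld, against 9.43% and 9.12% of all genes.

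Most members with a summit held more than 1, with a median of 3 for brat and 2 for UAS-HA-Zld, where all genes with a summit had a median of 2 in both. In the brat list 17 members had at least 4 and 16 had 1, and in the UAS-HA-Zld list 12 had at least 4 and 15 had 1. The most was 7, at RpL10 and RpL12 for brat and at RpL22 for UAS-HA-Zld. Within 28 members lie 74 of the 269 annotated snoRNA genes, which guide the modification of rRNA. Of these hosts 25 had a brat summit and 20 a UAS-HA-Zld summit, 89.3% and 71.4%, against 54 and 41 of the 64 members that host none, 84.4% and 64.1%. The intervals of hosts and other members overlapped in both lists.

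By arm, members with a brat and with a UAS-HA-Zld summit were 19 and 15 of 19 on 2L, 15 and 12 of 21 on 2R and 12 and 8 of 14 on 3L. They were 19 and 14 of 23 on 3R and 13 and 11 of 14 on X. Arm 2R had the lowest share in the brat list, at 71.4%, and held 5 of the 12 members with no summit in either list. A brat peak number was absent beside each of these 5 and beside RpS15Ab, so peaks not analysed here may lie at them. Over all protein-coding genes the brat and UAS-HA-Zld shares were 30.9% and 29.2% on 2L, 33.3% and 31.5% on 2R and 33.7% and 30.9% on 3L. They were 30.3% and 30.1% on 3R and 43.4% and 41.6% on X, and the members' share was above that of the arm's genes on each of these 5 arms in both lists.

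Genes that work with the ribosome also carried summits. Of 12 ribosome partners and elongation factors, 10 had one in each list, 83.3% (Wilson 95% interval 55.2 to 95.3%), where the members had 85.9% and 66.3%. Over all protein-coding genes it was 34.0% and 32.3%. eEF5, the factor that eases the joining of difficult residues, stood at 55.3-fold for brat and 20.8-fold for UAS-HA-Zld, above each of the 92 members in both. eEF1alpha1, which brings tRNAs to the ribosome, stood at 24.0-fold and 6.10-fold, and eEF2, which moves the ribosome along, at 19.1-fold and 3.58-fold. The eEF1alpha1 summits lay at different places, 2025 bp inside the gene for brat and outside the gene for UAS-HA-Zld. The small-subunit proteins outside the symbol rule had summits too, sta (the SA protein) at 6.27-fold and 4.23-fold and Rack1 at 4.71-fold and 1.92-fold. The Rack1 summits also lay at different places, 194 and 389 bp inside the gene. Tctp stood at 2.99-fold and 7.84-fold, and eEF1gamma and Nacalpha had no summit in either list.

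Of 12 genes for the assembly of ribosomes in the nucleolus, 11 had a brat summit, 91.7% (64.6 to 98.5%), and 7 a UAS-HA-Zld summit, 58.3% (31.95 to 80.7%). The shares over all protein-coding genes were 34.0% and 32.3%. Nop60B, the enzyme that makes pseudouridine in rRNA, stood at 20.4-fold for brat and 11.4-fold for UAS-HA-Zld, and NHP2, from the same particle, at 12.8-fold and 4.70-fold. Fib, the rRNA methylase, stood at 5.92-fold and 2.38-fold. The Fib summits lay at different places, 140 bp inside the gene for brat and 791 bp inside for UAS-HA-Zld. Those of Nop60B also differed in place, both outside the gene, with the brat summit near the edge of the 500 bp window. The genes with a brat summit alone were Nop56, Ns3, Non1 and Tif-IA, and nclb had none.

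Of 10 genes for regulators of ribosomal protein genes or of growth, 10 had a brat summit and 9 a UAS-HA-Zld summit. The shares over all protein-coding genes were 34.0% and 32.3%. These regulators are long genes, with a median of 15961 bp, and offer more room for a summit. No share for genes of like length is given here. The gene brat itself stood at 36.6-fold for brat and 19.3-fold for UAS-HA-Zld. Myc, which drives ribosome production, stood at 24.1-fold and 7.06-fold, and its antagonist Mnt at 20.4-fold and 5.11-fold. The Mnt summits lay at different places, 14549 bp inside the gene for brat and 5891 bp inside for UAS-HA-Zld. Xrp1, a stress factor active in Minute cells, stood at 20.2-fold and 7.13-fold. M1BP, which binds many promoters of ribosomal protein genes, had 5.34-fold in the brat list alone. That summit lay outside the gene, at the edge of the 500 bp window, so its assignment to M1BP is by distance only. Dref shared its strongest summit with its neighbour RpL13, at 6.94-fold and 3.92-fold.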

How the data were processed

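The peak lists of 4 anti-Zld CUT&RUN samples from larval brains were used, 1 list for each condition of 2 replicates. The 42 samples from S2 cells and the 2 IgG controls from brains were not analysed here. The submitters' processing notes name the build dm6 and the tools deepTools 3.5.1, Bowtie2 and MACS2, with no order. Pooling of replicates, filters and the control track were not stated. At each summit the deposited lists hold values the authors made, namely the fold enrichment (a ratio), an integer score, −log10 p-value and −log10 q-value. Pileups were solved from fold and −log10 p under a Poisson model and 100% of them were whole (relative tolerance 0.0001). Their floor of background, 22.6 fragments for brat and 28.8 for UAS-HA-Zld, is the measure of relative depth. The solver and the gene matching were tested on simulated data.

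Genes came from a RefSeq table for dm6 with 17684 genes on the 6 arms. It has no strand, so distances run from either gene end. A search for motifs in promoters was planned and not run, since it needs sequences not used here. A summit was counted for every gene that contains it or has an end within 500 bp. No test was run. The members and gene lists were chosen with earlier results of these data known. Genes were named by a rule: the 10 members with the highest −log10 q in each list, the members in 1 list only (at most 10 by −log10 q), the members of duplicated families and the members in neither list. Some genes that the rule names are not reported here. Genes named outside it were chosen after their values were seen. Alternatives were other windows, thresholds, equal list lengths, other assignments of summits and overlap of peaks. Leaving out duplicated families or genes beside absent peak numbers, and overlap of a peak with the window, were added after seeing the data. Python 3.11.15, pandas 2.3.3, numpy 2.4.6, scipy 1.17.1 and matplotlib 3.10.9 were used.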

Additional observations from a re-analysis of the deposited data

How the results depend on the processing

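Under the alternatives run on all members, 73 to 83 had a brat summit and 56 to 71 a UAS-HA-Zld summit. From 14 to 22 had one in the brat list alone, apart from the exception given below, and the brat median fold ran from 4.52 to 5.96. Over all protein-coding genes the shares moved from 27.2% and 26.0% with a window of 0 bp (75 and 57 members) to 43.4% and 43.1% with 2000 bp (83 and 71 members). Without duplicated families the counts were 60 and 45. With 50% overlap of peaks as the mark of a shared site, 42 members had a shared site. Without a shared site, 37 members had a brat summit and 19 a UAS-HA-Zld summit. Members with summits in both lists but no shared site count in each of these 2 numbers. With only members beside no absent peak number, 8 were in the brat list alone and 0 in the UAS-HA-Zld list alone. That last count, 1 as reported, was 2 with a window of 0 bp, 2 with 2000 bp, 2 with each summit given to 1 gene, 3 with the strongest summit of each peak and 0 without duplicated families. The median UAS-HA-Zld fold of 4.01 was 3.15 with a window of 0 bp, 3.31 with 250 bp and 3.31 with each summit given to 1 gene. The cause was not tested. No paired analysis was possible because each condition has 1 list, and for the same reason no replicate could be left out. The motif search was not run.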
